A study of Mus musculus with 8 samples.

Results

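The genes described here are 8 that encode enzymes of prostaglandin, thromboxane and leukotriene synthesis or, for Alox5ap, an activating protein: Ptgs1, Ptgs2, Ptges, Hpgds, Tbxas1, Alox5, Alox5ap and Ltc4s. They were taken by gene symbol from the 26062 gene IDs of the count table, and all 8 were found and passed the filter on low counts. The RNA came from microglia, the resident macrophages of the brain, of the lateral geniculate nucleus (LGN), the thalamic nucleus that receives retinal axons. All mice were adult wild type C57BL/6J males aged 2 to 3 months, and cells were bound to magnetic beads against CD11b, a surface integrin subunit that other myeloid cells also carry. The groups were uninjured mice with no treatment (2 libraries), mice 1 day after both optic nerves were crushed (3 libraries) and mice 3 days after that crush (3 libraries). Crush damages the axons of retinal ganglion cells at a distance from the LGN, and the comparisons ask how LGN microglia differ after it. Nothing in the labels tells if each library was made from a single mouse or from pooled mice, and p-values therefore reflect the variation among these 8 libraries alone, part of which could be technical.

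Eicosanoids are short-lived lipid signals made from arachidonic acid after phospholipases or monoacylglycerol lipases free it. The cyclooxygenases, encoded by Ptgs1 and Ptgs2, turn it into prostaglandin H2, which terminal synthases convert to prostaglandin E2 (Ptges), prostaglandin D2 (Hpgds) or thromboxane A2 (Tbxas1). In the other branch 5-lipoxygenase (Alox5), with its activating membrane protein FLAP (Alox5ap), makes leukotriene A4, which leukotriene C4 synthase (Ltc4s) joins to glutathione. In the brain, microglia are a known site of Ptgs1 and Hpgds expression.

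Library totals were 12700098 to 17994861 counts. Mitochondrially encoded genes took 22.5% and 21.3% of counts in uninjured libraries, 13.6%, 21.9% and 13.9% at 1 day, and 22.8%, 28.9% and 30.3% at 3 days. All 10 microglial markers were detected, with summed levels of 5973 and 7035 CPM (read counts relative to library size, with TMM scaling) in uninjured libraries, 7986 to 9163.5 CPM at 1 day and 5574.5 to 6394 CPM at 3 days. Monocyte markers summed to 662 and 694 CPM in uninjured libraries, 371 to 388 CPM at 1 day and 404 to 586 CPM at 3 days. Most single monocyte markers moved against that sum. Of the 6 tested, 5 were higher and 1 lower at 1 day than in uninjured libraries (median log2 fold change 0.56). At 3 days relative to 1 day, 1 was higher and 5 lower (median −1.10). Border macrophage markers summed to 532 and 665 CPM in uninjured libraries, 485 to 710 CPM at 1 day and 374 to 462 CPM at 3 days. Endothelial markers summed to 1543.5 and 1676 CPM in uninjured libraries, 730 to 903 CPM at 1 day and 1339 to 1411 CPM at 3 days. Choroid plexus markers varied most, at 854 and 9713 CPM in uninjured libraries, 6.08 to 113 CPM at 1 day and 1044 to 6596 CPM at 3 days. Of other cells known to express genes among these 8, mast cell markers summed to at most 10.2 CPM, platelet markers to at most 11.8 CPM and neutrophil markers to at most 153 CPM, the highest neutrophil sum being in replicate 2 at 1 day. The mast cell sum covers the 6 listed markers that were found in the table.

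Per kilobase of exon, 3 of the 8 genes stood well above the other 5, and Ptges lay below the rest. Hpgds averaged 107 CPM per kb over the 8 libraries and Ptgs1 103 CPM per kb, at percentiles 98.8 and 98.7 of the 17340 tested genes with a length. Ptgs2 followed at 61.1 CPM per kb (percentile 97.5). Their ranges over libraries were 77.8 to 139.9, 71.7 to 136 and 43.3 to 77.3 CPM per kb, so Ptgs1 overlapped both of the others, while the lowest library of Hpgds lay just above the highest of Ptgs2. A gap then separated them from Tbxas1 (15.0 CPM per kb, range 9.27 to 20.8), Alox5ap (14.7), Ltc4s (12.5) and Alox5 (9.92), whose ranges overlap one another. Lengths here count every annotated exon base of a gene, 9.09 kb for Tbxas1 and 4.58 kb for Ptgs2. Before division by length Tbxas1 averaged 136 CPM, between Ptgs2 (280 CPM) and Alox5 (40.7 CPM), so its place beside Alox5ap depends on that length. Ptges was lowest at 1.40 CPM per kb (range 0.456 to 1.87, percentile 34.8), below every library value of the other 7, and rests on 23 to 143 counts a library.

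**Figure D1:**
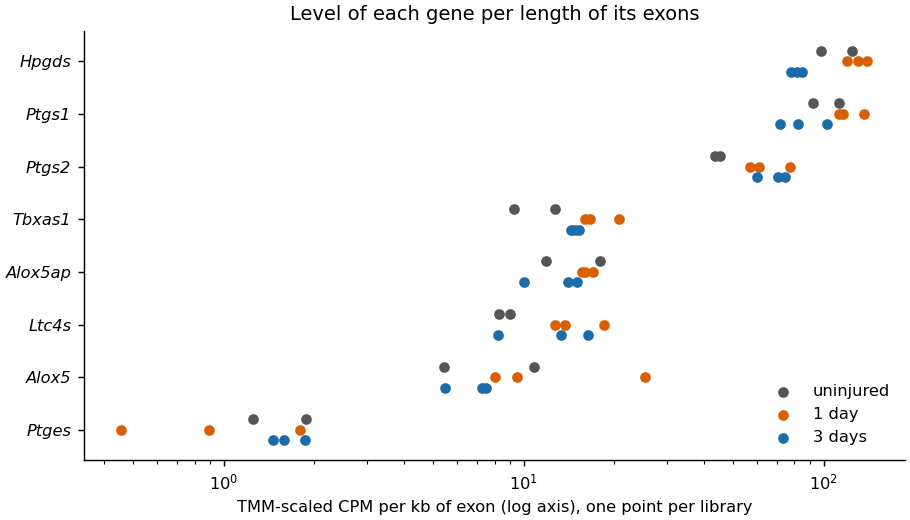
Level of each of the 8 genes in each library, in TMM-scaled CPM per kb of exon on a log axis, with grey points for uninjured, orange for 1 day and blue for 3 days. Hpgds, Ptgs1 and Ptgs2 lie at 43.3 CPM per kb or above in every library, while Ptges lies at 1.87 or below.

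Promoters are shown for the 3 genes of highest level and for Tbxas1, next in that order. Ratios of Hpgds to Ptgs2 and to Tbxas1 are described later. RefSeq (build GRCm38.p6) gave a promoter for 7 of the 8 genes. The lines give the 250 bases before the annotated start, 5′ to 3′ on the gene's strand, for Hpgds at chr6:65144731-65144980 (minus strand), Ptgs1 at chr2:36230176-36230425 (plus), Tbxas1 at chr6:38918736-38918985 (plus) and Ptgs2 at chr1:150099781-150100030 (plus). Capitals mark matches to GAGGAA, the core of the ETS-type motif bound by the myeloid factor PU.1, to its longer form GAGGAAGT, which contains it, and to TATAAA, each searched on both strands.
Hpgds: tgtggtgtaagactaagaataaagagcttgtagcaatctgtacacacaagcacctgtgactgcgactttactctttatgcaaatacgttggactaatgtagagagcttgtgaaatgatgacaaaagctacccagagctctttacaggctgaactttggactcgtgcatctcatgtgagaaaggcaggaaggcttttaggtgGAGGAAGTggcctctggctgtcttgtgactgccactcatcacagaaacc
Ptgs1: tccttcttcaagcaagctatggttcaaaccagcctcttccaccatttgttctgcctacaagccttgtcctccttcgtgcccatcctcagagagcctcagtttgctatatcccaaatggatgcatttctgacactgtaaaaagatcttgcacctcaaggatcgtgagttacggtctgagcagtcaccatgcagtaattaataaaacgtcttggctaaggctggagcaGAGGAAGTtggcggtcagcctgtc
Tbxas1: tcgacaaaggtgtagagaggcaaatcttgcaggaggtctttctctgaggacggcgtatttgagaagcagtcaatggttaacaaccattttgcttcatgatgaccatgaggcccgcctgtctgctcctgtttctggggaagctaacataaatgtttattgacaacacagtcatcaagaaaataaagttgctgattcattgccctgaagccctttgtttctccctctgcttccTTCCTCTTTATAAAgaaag
Ptgs2: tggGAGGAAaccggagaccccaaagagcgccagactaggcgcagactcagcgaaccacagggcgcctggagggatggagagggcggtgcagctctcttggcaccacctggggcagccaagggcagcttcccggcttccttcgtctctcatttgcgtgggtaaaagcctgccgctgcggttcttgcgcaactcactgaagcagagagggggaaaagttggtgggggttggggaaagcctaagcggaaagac
The longer motif lay 49 to 42 bases before the start of Hpgds and 24 to 17 bases before that of Ptgs1, and was in 2 of the 7 promoters. Over 32851 mouse promoters of the same length, 2.44% held it. The 6-base core was in 6 of the 7, including Ptges and Alox5, against 23.3% of all promoters. In Tbxas1 it was on the opposite strand, 19 to 14 bases before the start. It adjoined a TATAAA on the opposite strand, 13 to 8 bases before the start, which overlapped another on the gene's strand, 11 to 6 bases before it. Of all promoters 12.4% held TATAAA. In Ptgs2 the core lay 247 to 242 bases before the start, in a window of 61.6% G and C, against 43.6% to 48.0% in the other 3 windows. The motifs were chosen after reading the sequences, and a match is a description of letters and not a binding site.

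At 1 day after crush, none of the 8 genes passed the test against uninjured libraries, where 1.77% of 17390 genes did (edgeR quasi-likelihood test, Benjamini-Hochberg adjusted p under 0.05). At an unadjusted p under 0.05 there were 2 of the 8, Ptgs2 and Tbxas1, both higher, against 14.8% of all genes. The libraries of the 2 groups did not overlap for Ptgs2, Tbxas1 and Ltc4s, all higher at 1 day, where 14.3% of all genes were higher without overlap and 29.3% did not overlap in either direction. The median log2 fold change of the 8 was 0.40, with 7 higher and 1 lower, and that of all tested genes 0.06. DESeq2 called 1 of the 8 (Tbxas1, adjusted p = 0.0335) and limma-voom 0, where they called 5.38% and 2.02% of all genes given an adjusted p.

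At 3 days, again none of the 8 passed against uninjured libraries, where 3.47% of genes did (edgeR). At an unadjusted p under 0.05 there were 3, Ptgs2 and Tbxas1 higher and Hpgds lower, against 15.8% of all genes, and these were also the 3 whose libraries did not overlap, against 39.4% of all genes. The median log2 fold change was −0.06, with 4 higher and 4 lower, and that of all tested genes was −0.0016. DESeq2 called Ptgs2 higher (adjusted p = 0.0312) and Hpgds lower (adjusted p = 0.0371), and limma-voom called Ptgs2 (adjusted p = 0.0396), where they called 9.90% and 4.63% of all genes. Both comparisons with uninjured mice use the same 2 control libraries.

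Between the times, 1 of the 8 passed: Hpgds fell at 3 days relative to 1 day. Of all tested genes 11.0% passed in this comparison and 5.75% fell (edgeR), so a count of 1 in 8 is near the background. An unadjusted p under 0.05 was reached by 3 genes, Hpgds, Ptgs1 and Alox5, all lower, against 26.2% of all genes. The libraries did not overlap for 5 genes, all lower at 3 days (Ptgs1, Hpgds, Tbxas1, Alox5 and Alox5ap), where 13.6% of all genes were lower without overlap and 29.8% did not overlap in either direction. The median log2 fold change of the 8 was −0.29, with 2 higher and 6 lower, against 0.02 over all tested genes. DESeq2 called Hpgds, Ptgs1 (adjusted p = 0.0344) and Alox5 (adjusted p = 0.0414), and limma-voom called Hpgds and Ptgs1 (adjusted p = 0.0395), where they called 17.4% and 9.70% of all genes.

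**Figure D2:**
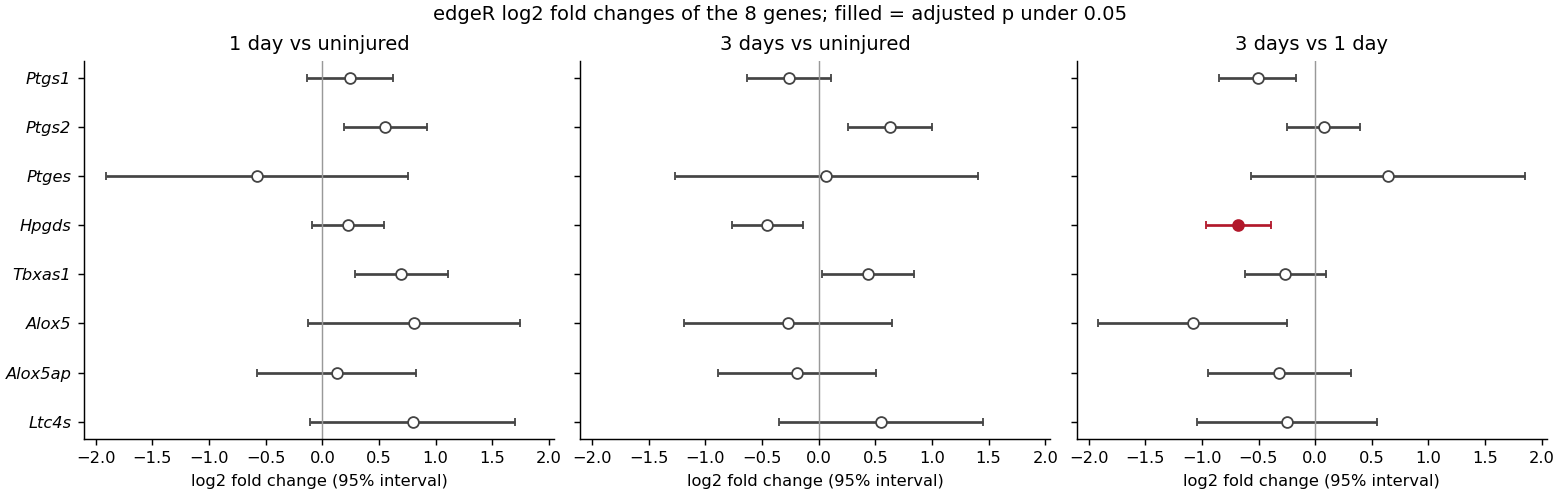
edgeR log2 fold changes of the 8 genes with 95% intervals, for 1 day against uninjured, 3 days against uninjured and 3 days against 1 day. The filled red point, Hpgds at −0.68 between the times, is the one with an adjusted p under 0.05.

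Neither cyclooxygenase gene passed the test in any comparison. Ptgs1, the isoform known as constitutive in many tissues, had 359 and 438 CPM in uninjured libraries, 529, 452 and 437 CPM at 1 day, and 399, 278 and 318 CPM at 3 days. Every 3 day library was below every 1 day library, while both times overlapped the uninjured pair. The log2 fold change of 3 days over 1 day was −0.51 (SE 0.16, 95% interval −0.85 to −0.17, edgeR adjusted p = 0.0522), just outside the threshold. Without replicate 1 of 3 days it passed, at −0.66 (adjusted p = 0.0364). Relative to summed microglial markers, the 1 day and 3 day libraries overlapped. On the TMM scale, the log2 fold change of Ptgs1 over uninjured was 0.25 at 1 day (SE 0.18, edgeR adjusted p = 0.594). At 3 days it was −0.26 (SE 0.18, adjusted p = 0.536).

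Ptgs2, the isoform known to be induced by inflammatory signals, had 206 and 198 CPM in uninjured libraries, 261, 354 and 278 CPM at 1 day, and 275, 323 and 342 CPM at 3 days. All 6 libraries after crush lay above the uninjured pair, and the times overlapped each other. Its mean was 298 ± 49.7 CPM at 1 day (SD, n = 3) and 202 ± 5.77 CPM in uninjured libraries (n = 2), a fold of 1.47 (log2 0.56, SE 0.17, 95% interval 0.19 to 0.93, edgeR adjusted p = 0.128). At 3 days it was 313 ± 34.3 CPM (n = 3), a fold of 1.55 over the same pair (log2 0.63, SE 0.17, 95% interval 0.26 to 1.0, adjusted p = 0.0639). Leaving out replicate 2 at 1 day brought the 3 day difference to an adjusted p of 0.0376, with a log2 fold change of 0.58. Between the times the log2 fold change was 0.07 (95% interval −0.25 to 0.40, adjusted p = 0.818).

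**Figure D3:**
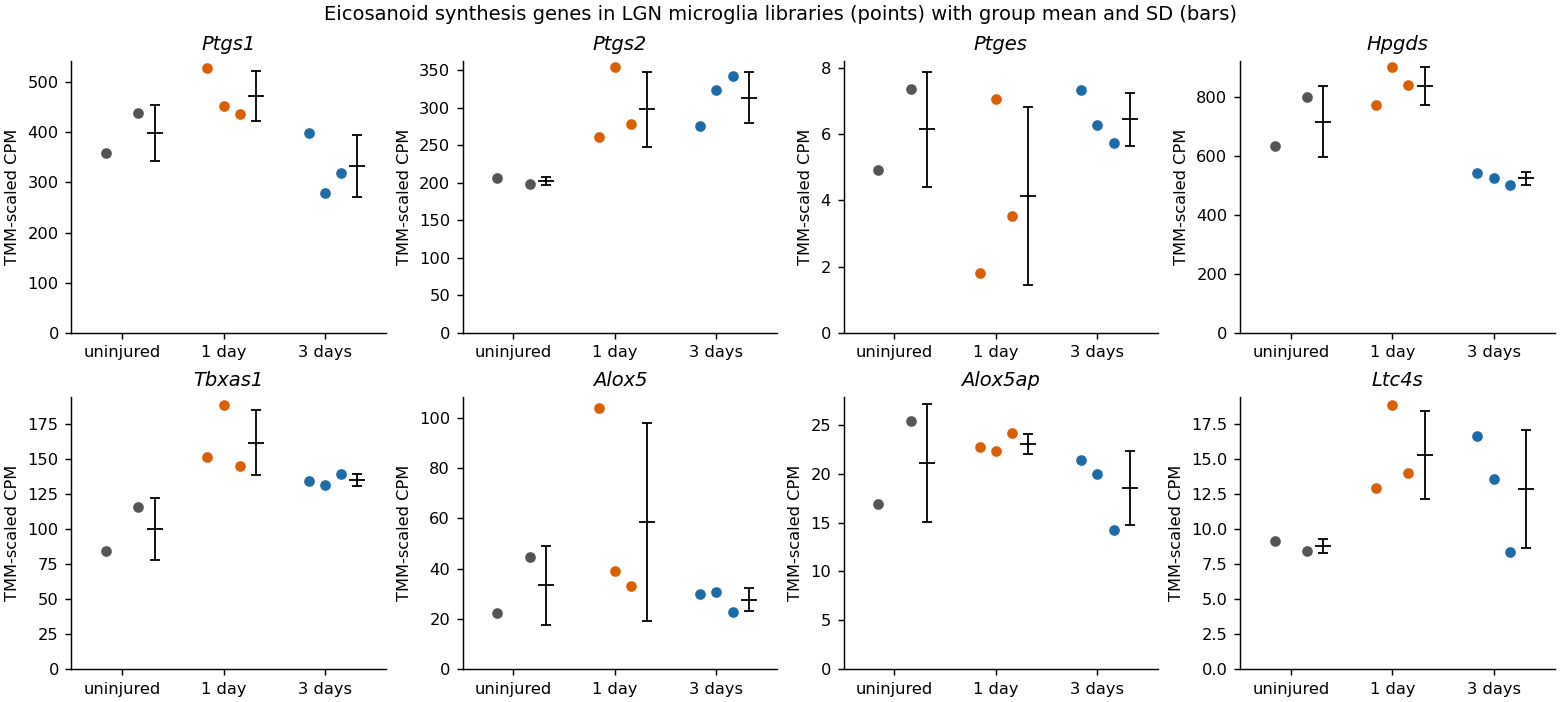
TMM-scaled CPM of each of the 8 genes in each library (points, replicates in order), with the group mean and SD as bars, for uninjured, 1 day and 3 days. Hpgds lies at 543 CPM or below in all 3 day libraries and at 771 CPM or above at 1 day, and Alox5 has 1 library at 104 CPM.

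Of the terminal prostanoid synthases, Hpgds had the clearest difference. It had 632 and 799 CPM in uninjured libraries, 771, 899 and 838 CPM at 1 day, and 543, 526 and 499.7 CPM at 3 days, from 6193 to 15519 counts a library. The 3 day libraries lay close together and below all others, and the 1 day libraries overlapped the uninjured pair. Hpgds fell at 3 days to a mean of 523 ± 21.7 CPM, against 836 ± 64.2 CPM at 1 day (SD, n = 3 each), a fold of 0.625 (95% interval 0.513 to 0.762, log2 −0.68, SE 0.13, edgeR adjusted p = 0.00502). The call held with each library left out in turn, at adjusted p = 0.00296 to 0.0360. Against the uninjured mean of 716 ± 119 CPM (n = 2), the log2 fold change was −0.45 at 3 days (SE 0.15, 95% interval −0.77 to −0.14, adjusted p = 0.119) and 0.22 at 1 day (SE 0.15, adjusted p = 0.550). Microglial markers moved in the same comparison, with 5 of 10 falling at 3 days relative to 1 day and none rising. Relative to their summed counts, the log2 change of Hpgds for 3 days over 1 day was −0.14, and the times overlapped. Border macrophage markers summed to 374 to 462 CPM at 3 days, against 485 to 710 CPM at 1 day, and mast cell markers to 3.79 to 4.25 CPM at 3 days, against 6.41 to 10.2 CPM at 1 day. The part of these cells in the fall of Hpgds was not tested. The share of mitochondrially encoded counts was higher at 3 days, and without those genes Hpgds fell by 0.63 on the log2 scale (adjusted p = 0.00782). These are bulk libraries, in which fewer cells of a type and less RNA per cell cannot be told apart.

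Tbxas1 encodes thromboxane A synthase, a P450 enzyme known from platelets and macrophages. It had 84.3 and 116 CPM in uninjured libraries, 152, 189 and 145 CPM at 1 day, and 134, 131 and 139 CPM at 3 days. None of the 3 groups overlapped: 1 day was highest and the uninjured pair lowest. The log2 fold change over uninjured was 0.70 at 1 day (SE 0.19, 95% interval 0.28 to 1.11, edgeR adjusted p = 0.0855) and 0.43 at 3 days (SE 0.19, 95% interval 0.03 to 0.84, adjusted p = 0.277). For 3 days over 1 day it was −0.26 (SE 0.17, adjusted p = 0.357).

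Ptges encodes microsomal prostaglandin E synthase-1, the inducible enzyme usually paired with Ptgs2. It had 4.91 and 7.37 CPM in uninjured libraries, 1.79, 7.06 and 3.51 CPM at 1 day, and 7.32, 6.25 and 5.73 CPM at 3 days, so all groups overlapped. Its 95% intervals were the widest of the 8, at −1.91 to 0.76 for 1 day over uninjured and −1.27 to 1.41 for 3 days over uninjured. Both intervals hold 0 as well as the Ptgs2 values of 0.56 and 0.63, so a difference like that of Ptgs2 could not be told from none.

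In the leukotriene branch no gene passed the test in any comparison. Alox5 had 22.3 and 44.6 CPM in uninjured libraries, 104, 38.9 and 32.9 CPM at 1 day, and 29.8, 30.7 and 22.5 CPM at 3 days. Replicate 1 at 1 day stood apart from all other libraries, and the groups overlapped except between the times, where all 3 day libraries were lower. The log2 fold change was −1.08 for 3 days over 1 day (SE 0.39, 95% interval −1.91 to −0.25, edgeR adjusted p = 0.0920) and 0.81 for 1 day over uninjured (SE 0.44, adjusted p = 0.435). Neutrophils are another known source of Alox5, and their markers summed to 40.4 and 55.2 CPM in uninjured libraries, 80.3, 153 and 63.3 CPM at 1 day, and 24.6 to 54.1 CPM at 3 days, a part that was not tested. Without replicate 1 of 1 day the Alox5 values became −0.38 (adjusted p = 0.491) and 0.10. Without replicate 2 or 3 of 1 day the difference between the times passed instead, at −1.31 (adjusted p = 0.0437) and −1.37 (adjusted p = 0.0441).

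Alox5ap, the partner of Alox5, showed no such library. It had 16.9 and 25.4 CPM in uninjured libraries, 22.7, 22.3 and 24.2 CPM at 1 day, and 21.4, 20.0 and 14.2 CPM at 3 days. The 3 day libraries lay below those of 1 day, and both times overlapped the uninjured pair. Its log2 fold changes were 0.13 for 1 day over uninjured (SE 0.33, edgeR adjusted p = 0.926), −0.19 for 3 days over uninjured (SE 0.33, adjusted p = 0.866) and −0.32 for 3 days over 1 day (SE 0.29, adjusted p = 0.548).

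Ltc4s had 9.14 and 8.40 CPM in uninjured libraries, 12.9, 18.9 and 14.0 CPM at 1 day, and 16.6, 13.6 and 8.31 CPM at 3 days. All 1 day libraries were above the uninjured pair, and replicate 3 at 3 days was below it. The log2 fold change over uninjured was 0.80 at 1 day (SE 0.42, 95% interval −0.11 to 1.70, edgeR adjusted p = 0.420) and 0.55 at 3 days (SE 0.42, adjusted p = 0.608). Exons of Ltc4s share 268 of 1014 bases with Gm26542 on the opposite strand, and those of Alox5ap 189 of 1420 bases with Gm19719. The overlap was smaller for Ptgs1 (148 of 3884 bases, Gm43621) and Tbxas1 (144 of 9094, Gm42962). The strand setting of the counting is not given in the sources used here, so reads of these pairs may be mixed.

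Ratios of 2 genes within a library do not depend on library scaling, and were examined after the values above were seen. The ratio of Hpgds to Tbxas1 counts was 7.49 and 6.92 in uninjured libraries, 5.08, 4.76 and 5.77 at 1 day, and 4.04, 4.01 and 3.59 at 3 days, with no overlap between any 2 groups. Hpgds makes prostaglandin D2 and Tbxas1 thromboxane A2 from the same substrate, prostaglandin H2, though these are ratios of RNA counts and not of products. The ratio of Hpgds to Ptgs2 was 3.06 and 4.03 in uninjured libraries, 2.96, 2.54 and 3.01 at 1 day, and 1.97, 1.63 and 1.46 at 3 days, likewise without overlap. Ptgs1 to Ptgs2 was 1.74 and 2.21 in uninjured libraries, 2.03, 1.28 and 1.57 at 1 day, and 1.45, 0.861 and 0.932 at 3 days, so Ptgs2 counts exceeded Ptgs1 counts in 2 of the 8 libraries, both at 3 days. Of the 28 pairs of the 8 genes, 35.7%, 50.0% and 32.1% were without overlap for 1 day against uninjured, 3 days against uninjured and 3 days against 1 day. Over all pairs of tested genes averaging 5 CPM or more, with a count in every library, these shares were 29.3%, 45.7% and 33.4%. The pairs of the 8 thus lie near the background. For 3 of the 28 pairs, these 2 with Hpgds and Tbxas1 to Ptges, all 3 comparisons were without overlap, against 6.56% of all such pairs. These 3 pairs share genes and are not independent, and the last rests on Ptges, with 23 to 143 counts a library.

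**Figure D4:**
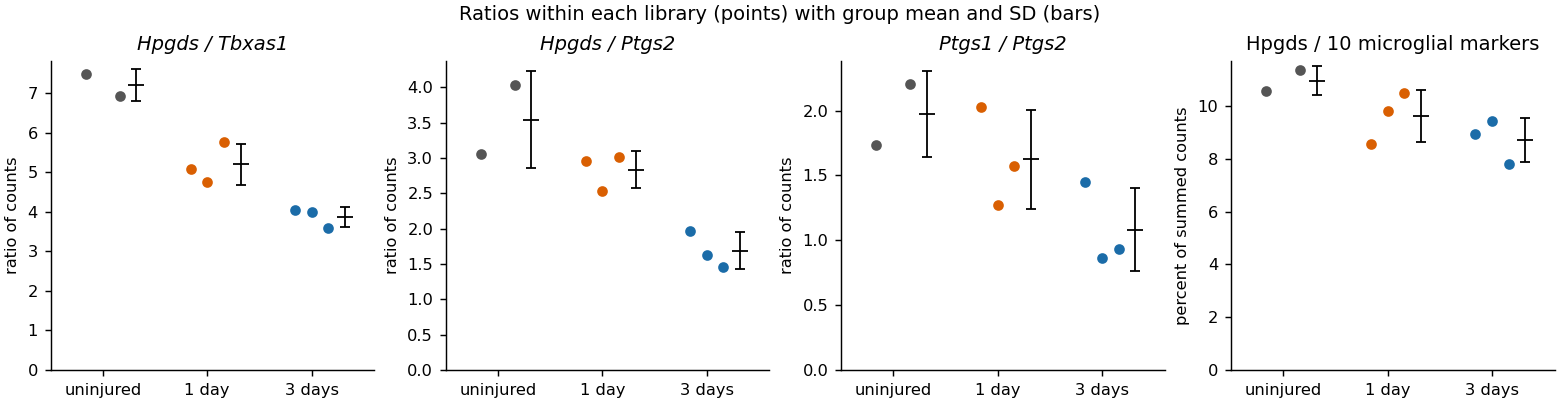
Ratios of counts within each library (points) with the group mean and SD (bars) for Hpgds to Tbxas1, Hpgds to Ptgs2 and Ptgs1 to Ptgs2, and Hpgds counts as a percent of the summed counts of 10 microglial markers, for uninjured, 1 day and 3 days. The first 2 ratios separate all 3 groups, and in the last panel the 1 day and 3 day libraries overlap.

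Set against the summed counts of the 10 microglial markers, Hpgds was 10.6% and 11.4% in uninjured libraries, 8.55%, 9.81% and 10.5% at 1 day, and 8.94%, 9.43% and 7.81% at 3 days. On this scale, chosen after seeing the data, the times overlapped, and both lay below the uninjured pair. Its log2 change for 3 days over 1 day was −0.14, against −0.68 on the TMM scale. Ptgs2 was 3.46% and 2.82% in uninjured libraries, 2.89%, 3.87% and 3.48% at 1 day, and 4.53%, 5.80% and 5.35% at 3 days, where the 3 day libraries lay above both other groups. Tbxas1 was 1.41% and 1.64% in uninjured libraries, 1.68%, 2.06% and 1.82% at 1 day, and 2.21%, 2.35% and 2.18% at 3 days, without overlap and highest at 3 days. So the order of the times for Tbxas1 depends on the scale, 1 day being highest in CPM. Ptgs1 was 6.01% and 6.22% in uninjured libraries, 5.87%, 4.93% and 5.47% at 1 day, and 6.58%, 4.99% and 4.98% at 3 days. On this scale 1 day and 3 days overlapped, and the log2 change for 3 days over 1 day was 0.016, against −0.51 on the TMM scale. Ptges had a log2 change of −1.19 at 1 day over uninjured and 1.39 at 3 days over 1 day, both without overlap. Its 1 day libraries hold only 23, 88 and 57 counts of it. Alox5, Alox5ap and Ltc4s overlapped in all 3 comparisons. The share of all genes without overlap on this scale was not computed, so these overlaps have no background beside them. The part of the microglial markers in these differences was not tested.

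The rest of the pathway was read from a list of genes for arachidonic acid release, other synthases, catabolism and transport, and receptors, of which 57 were in the table and 50 were tested. At 1 day against uninjured 0 of the 50 passed (edgeR). Before adjustment 5 had a p under 0.05, 3 of them higher and 2 lower, against 14.8% of all genes, and DESeq2 called 3 and limma-voom 1, against 5.38% and 2.02% of all genes. The 50 had a median log2 fold change of 0.10. At 3 days against uninjured 2 rose, Abhd12 and Cotl1, and 0 fell, with a median of 0.06. Between the times 2 rose, Abhd12 and Abcc4, and 4 fell, Dagla, Daglb, Hpgd and Cysltr1, with a median of 0.26. The shares of all genes that passed are the 1.77%, 3.47% and 11.0% given above.

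Among genes of arachidonic acid release 11 were tested. Abhd12, a lipase of lysophosphatidylserine and monoacylglycerol, had 189 and 292 CPM in uninjured libraries, 324, 458 and 258 CPM at 1 day, and 551, 525 and 572 CPM at 3 days. The 3 day libraries lay above all others, and Abhd12 rose 2.28-fold over uninjured (log2 1.19, SE 0.23, edgeR adjusted p = 0.0105) and by 0.66 on the log2 scale over 1 day (SE 0.20, adjusted p = 0.0473). The rise over uninjured lost its call without uninjured replicate 1 (adjusted p = 0.180) or replicate 3 of 3 days (0.0693), and that over 1 day in 5 of 8 omissions, at adjusted p up to 0.154 (replicates 1 and 3 of 1 day, and each of the 3 day replicates), and with no robust estimation (0.0558).

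The diacylglycerol lipases Dagla and Daglb, which make 2-arachidonoylglycerol, fell at 3 days relative to 1 day. Daglb had 77.2 and 116 CPM in uninjured libraries, 128, 84.2 and 127 CPM at 1 day, and 76.6, 56.4 and 54.5 CPM at 3 days, and fell by 0.86 on the log2 scale between the times (SE 0.22, edgeR adjusted p = 0.0243). Dagla had 31.5 and 41.0 CPM in uninjured libraries, 46.3, 31.1 and 45.8 CPM at 1 day, and 22.0, 26.8 and 19.8 CPM at 3 days, and fell by 0.84 (SE 0.26, adjusted p = 0.0490). For both, every 3 day library lay below every other library. The Daglb call was lost without replicate 1 or 3 of 1 day or replicate 2 or 3 of 3 days (adjusted p up to 0.125), and the Dagla call in 7 of 8 omissions, all but replicate 2 of 1 day (up to 0.185). The Dagla call was also lost with limma-voom, library size scaling, the 2 groups alone, the replicate block, no robust estimation, or without mitochondrially encoded genes (adjusted p = 0.0512 to 0.0771). Exons of Daglb share 2309 of 9567 bases with Rac1 on the opposite strand.

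Hpgd encodes the 15-hydroxyprostaglandin dehydrogenase that inactivates prostaglandins, and differs from Hpgds. It had 226 and 278 CPM in uninjured libraries, 293, 336 and 243 CPM at 1 day, and 151, 185 and 174 CPM at 3 days. The 3 day libraries lay below all others, and Hpgd fell by 0.77 on the log2 scale between the times (SE 0.16, edgeR adjusted p = 0.00691), a call that held in 8 of 8 omissions. At 3 days over uninjured it was −0.57 (adjusted p = 0.102), and −0.62 without replicate 2 of 1 day (adjusted p = 0.0386). That difference also passed with DESeq2 (adjusted p = 0.0351), library size scaling (0.0354) and the 2 groups alone (0.0490). Abcc4, a transporter that exports prostaglandins, had 72.6 and 74.9 CPM in uninjured libraries, 11.7, 27.5 and 49.7 CPM at 1 day, and 77.1, 85.0 and 65.3 CPM at 3 days. It was lowest at 1 day, and rose between the times by 1.35 on the log2 scale (SE 0.36, adjusted p = 0.0271). That call was lost without replicate 2 of 1 day or any 1 replicate of 3 days (adjusted p up to 0.0849), or with no filter (0.0778). At 1 day over uninjured Abcc4 had a log2 fold change of −1.31 (adjusted p = 0.109), and −1.91 without replicate 3 of 1 day (adjusted p = 0.0167). That difference also passed with DESeq2 (adjusted p = 0.0278), limma-voom (0.0439) and the replicate block (0.0465). Endothelial and choroid plexus marker sums were also lowest at 1 day, and their part was not tested.

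Cysltr1, the first receptor of the cysteinyl leukotrienes, had 38.8 and 46.9 CPM in uninjured libraries, 74.8, 66.0 and 47.2 CPM at 1 day, and 23.3, 23.8 and 21.0 CPM at 3 days. The groups did not overlap, 1 day being highest and 3 days lowest. Cysltr1 fell between the times by 1.47 on the log2 scale (SE 0.24, 95% interval −1.97 to −0.96, edgeR adjusted p = 0.00130), in 8 of 8 omissions. Against uninjured its log2 fold change was −0.92 at 3 days (adjusted p = 0.0654, or 0.0374 to 0.0493 without any 1 of the 1 day replicates) and 0.55 at 1 day (adjusted p = 0.349). The 3 day difference also passed with DESeq2 (adjusted p = 0.00681), library size scaling (0.0371), no filter (0.0374) and the 2 groups alone (0.0282). Neither Cysltr2 nor Ltb4r1, the other leukotriene receptors tested, passed, nor did Fpr2, a formyl peptide receptor on the same list, and none of the 7 prostanoid receptors did, among which Ptger4, an EP receptor for prostaglandin E2, had the highest mean at 70.8 CPM.

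Cotl1, a coactosin-like protein that binds 5-lipoxygenase and actin, had 29.0 and 51.3 CPM in uninjured libraries, 97.0, 140 and 56.3 CPM at 1 day, and 199, 109 and 184 CPM at 3 days. All libraries after crush lay above the uninjured pair, and Cotl1 rose 4.09-fold at 3 days over uninjured (log2 2.03, SE 0.37, edgeR adjusted p = 0.00730). Its log2 fold change was 1.28 at 1 day over uninjured (adjusted p = 0.0895, or 0.0320 without replicate 3 of 1 day) and 0.75 between the times (adjusted p = 0.137, or 0.0320 without replicate 2 of 1 day). DESeq2 also called Cotl1 at 1 day over uninjured (adjusted p = 0.0201). The 3 day call was lost without uninjured replicate 1 (adjusted p = 0.144) or replicate 3 of 3 days (0.0508). Of the 7 other prostanoid synthases tested none passed, and the highest of them, Ptges3, averaged 39.0 CPM and had a log2 fold change of −0.73 between the times (adjusted p = 0.165). The annotation holds a processed pseudogene of Ptges3, with which its reads could be shared.

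**Figure D5:**
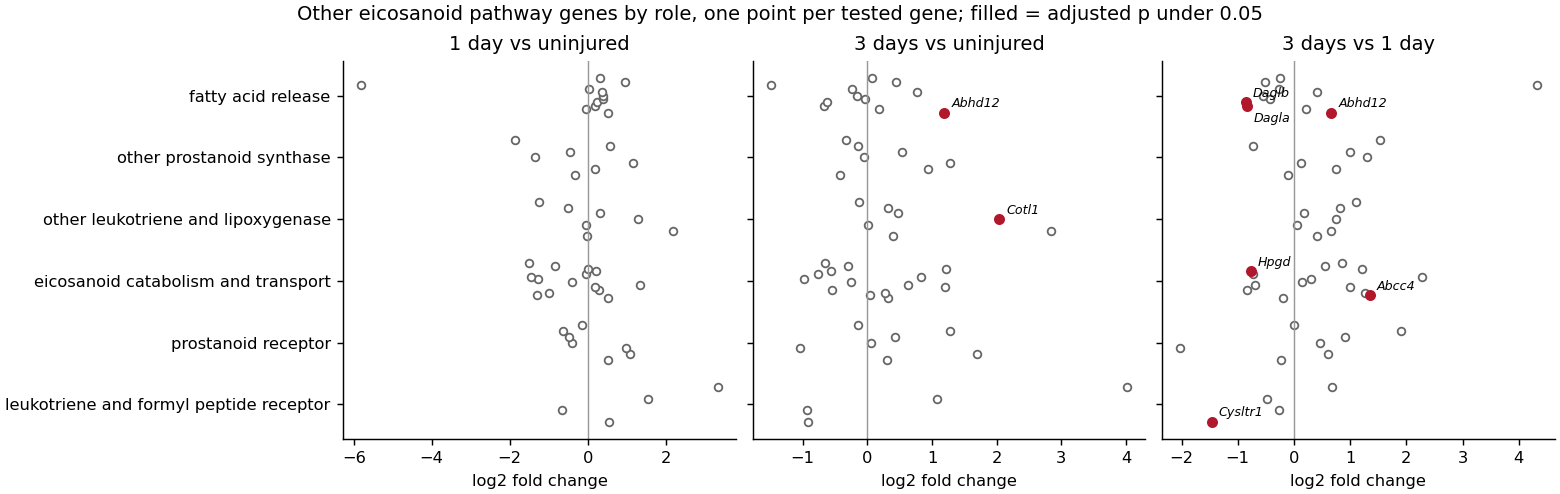
edgeR log2 fold changes of the 50 other tested genes of the pathway by role, 1 point per gene, for 1 day against uninjured, 3 days against uninjured and 3 days against 1 day, with filled red points for adjusted p under 0.05. The points past 4 and below −5 on the log2 scale are genes with 0 or 1 count in a group, whose fitted fold depends on the prior count.

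The pattern of each gene over the 8 libraries was set beside those of the other tested genes averaging 5 CPM or more, by Pearson's r of log2 CPM. These are descriptions over libraries that share their groups, and carry no test. Closest to Hpgds were Csf3r (r = 0.991), which encodes the receptor of granulocyte colony-stimulating factor, Bicral (0.990) and Aknaos (0.989). Closest to Ptgs1 were Por (0.992), the reductase that feeds electrons to P450 enzymes, Tle3 (0.989) and Ctsf (0.979). Ptgs2 was most like Tnfsf9 (0.979), a ligand of the tumour necrosis factor family, Lrrc75a (0.973) and Stxbp2 (0.972). Tbxas1 was most like Prrc2a (0.987), Cmip (0.986) and Rap1gds1 (0.985), and Ptges most like Endod1 (0.976), Slc17a5 (0.968) and Mcee (0.963). In the leukotriene branch the nearest genes were Smox (0.961), Unk (0.955) and Agfg2 (0.944) for Alox5. They were Armh3 (0.957), Trp53i11 (0.951) and Nfatc1 (0.950) for Alox5ap, and Rasa4 (0.929), Slc15a2 (0.926) and Ube2q1 (0.917) for Ltc4s.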

How the data were processed

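RNA was measured by sequencing in CD11b bead-bound cells of the mouse lateral geniculate nucleus. A micro-scale kit gave the RNA, which was linearly amplified before cDNA libraries were made, per the labels' protocols. Amplification can distort the abundance of low transcripts. The authors deposited raw read counts per Ensembl gene ID. Per the submitters' processing notes, FastQC, STAR, HTSeq and the build mm9 were used, and which versions, annotation and strand mode were used is not given in the sources used here.

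Of the 26062 IDs, 25925 matched a symbol in GENCODE M21, and IDs without one held 0.127% of counts. GENCODE M21 is on another build than mm9, so it gave names, exon lengths and exon overlaps but no coordinates. Promoters are those of RefSeq, GRCm38.p6.

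Counts were tested with edgeR 4.0.16 (R 4.3.3): filterByExpr left 17390 genes, with TMM scaling and 1 quasi-likelihood fit (robust) to the 8 libraries together, with a mean per group, since the uninjured group has 2. The biological coefficient of variation was 51.1%. The threshold was 0.05 for the p adjusted by Benjamini-Hochberg across the 17390 genes, and an SE is the log2 fold change over the root of F. Within each group, libraries differed from one another beyond sampling noise (chi-square per degree of freedom 31.4 to 64.8). The procedure was tested on simulated data. Alternatives were DESeq2 1.42.0, limma-voom (limma 3.58.1), other scaling and filters, the replicate number as a block, mitochondrially encoded genes left out, the 2 groups alone, and each library left out. The 8 genes and all lists were chosen with earlier results of these data known. Named genes were the 8, other pathway genes called in any comparison, the highest of each pathway list, and for each of the 8 the 3 genes of highest r. A gene's name is used elsewhere only where a result turns on it.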

Additional observations from a re-analysis of the deposited data

Results flagged for a closer look

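The genes below are listed here because their effect at 3 days differed from that at 1 day in the direct test between the times (edgeR, adjusted p under 0.05). The log2 fold change of 3 days over 1 day was −0.6776 for Hpgds, −0.7718 for Hpgd and −1.466 for Cysltr1, and these 3 calls held with each library left out. It was −0.8565 for Daglb, −0.8435 for Dagla, 0.664 for Abhd12 and 1.351 for Abcc4, calls that were lost in 4, 7, 5 and 4 of 8 omissions. The uninjured libraries share the fit and its estimate of the spread, and the Dagla call was among those lost without either of them (adjusted p = 0.0648 and 0.0689). Relative to summed microglial markers, the Hpgds change between the times was −0.14, and the libraries of the 2 times overlapped.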

How the results depend on the processing

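The 8 genes in 3 comparisons were refitted under 18 other settings. Of 432 such results 411 kept direction and call, 0 lost a call, 14 gained one and 7 reversed. With each library left out, the log2 fold changes that reversed ranged from −0.14 to 0.45 for Alox5ap (1 day over uninjured). For 3 days over uninjured they ranged from −0.46 to 0.13 for Alox5ap, −0.69 to 0.31 for Alox5 and −0.20 to 0.39 for Ptges, which library size scaling turned to −0.079. For 3 days over 1 day the range for Ptgs2 was −0.015 to 0.21. The added scale of microglial markers turned Hpgds at 1 day over uninjured to −0.19. On that scale its change for 3 days over 1 day, the 1 called result of the 8 genes, shrank from −0.68 to −0.14, with the times overlapping. Of 486 results for 9 other pathway genes 422 kept direction and call, 32 lost a call, 18 gained one and 14 reversed. With each library left out, Dagla ranged from −0.0014 to 0.38 and Daglb from −0.035 to 0.55 at 1 day over uninjured. At 3 days over uninjured Abcc4 ranged from −0.10 to 0.086, Ptger4 from −0.21 to 0.25 and Ptges3 from −0.47 to 0.26. There Abcc4 also turned to −0.0035 with DESeq2, −0.11 with library size scaling, −0.020 with no filter and −0.12 with the replicate block, and Ptger4 to −0.094 with library size scaling and −0.0075 with no filter. Calls over all genes were 308 (106 higher, 202 lower), 604 (433 higher, 171 lower) and 1912 for 1 day over uninjured, 3 days over uninjured and 3 days over 1 day. DESeq2 gave 909, 1375 and 3120, and fits of the 2 groups alone 110 and 1345 for the first 2 comparisons. Library size scaling split the first 2 as 46 higher and 233 lower, and 317 higher and 244 lower, and moved the median log2 fold change of all genes at 3 days over uninjured to −0.15. limma-voom split the first as 187 higher and 164 lower. Between the times, no filter gave 2017 genes and a stricter filter 1962. With each library left out the counts were 39 (without uninjured replicate 1) to 368, 108 (the same) to 982 (without replicate 2 of 1 day) and 747 (without replicate 3 of 3 days) to 2362. Of the 8 genes, DESeq2 called 1, 2 and 3, limma-voom 1 at 3 days over uninjured and 2 between the times, the 2 groups alone 1 at 3 days over uninjured, and no filter or a stricter one 2 between the times. Leaving out libraries gave 0 to 0, 0 to 1 and 1 to 2. Of the other pathway genes DESeq2 called 3 and 4 against uninjured, limma-voom 1 at 1 day, library size scaling 4 and the 2 groups alone 4 at 3 days. Leaving out libraries gave 0 to 2 (2 without replicate 3 of 1 day), 0 to 4 (0 without uninjured replicate 1 or replicate 3 of 3 days, 4 without replicate 2 of 1 day) and 2 to 8 (2 without replicate 2 or 3 of 3 days). Where a count or direction moved, the cause was not tested. With the replicate number as a block, the counts were 301, 424 and 1700 genes, 0, 0 and 1 of the 8, and 1, 2 and 5 of the other pathway genes. Same-numbered libraries did not deviate together (correlations −0.0657 to 0.0918), so the pairing rests on a number alone. Ptges rests on 23 to 143 counts a library, and the uninjured group on 2 libraries.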
